A study of Mus musculus with 6 samples.

Results

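SLC7A11 and SLC3A2 encode the 2 chains of system xc-, the plasma membrane exchanger that brings cystine into the cell and releases glutamate. Both genes were taken by symbol from the count table, which lists 39234 genes, and both were among the 18188 genes that passed the filter on low counts. RNA was sequenced from HK-2 cells, an immortalized line of human proximal tubular epithelium, in 3 control libraries (genotype WT) and in 3 libraries of WT cells with USAG-1 overexpression. Mouse is given as the organism in the labels, but the identifiers in the table are human. Per the methods of the study, overexpression came from transient transfection of an expression plasmid and the identity of the line was not tested by STR profiling, while what the control cells received, the time of harvest and any stress treatment are not given in the sources used here.

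Imported cystine is reduced to cysteine, the limiting amino acid for glutathione, which glutathione peroxidase GPX4 uses to detoxify lipid peroxides. When cystine import is blocked, cells lose glutathione and can die by ferroptosis, an iron-dependent death driven by lipid peroxidation that the study examined in renal tubular cells. SLC7A11 is the light chain that carries out the exchange and is a classical target of the transcription factors ATF4 and NRF2 (NFE2L2). SLC3A2 (CD98hc, 4F2hc) is the heavy chain that brings SLC7A11 and several other amino acid transporters to the membrane and also binds beta integrins.

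The libraries held 41236194 to 48699471 counts. SOSTDC1, the gene of USAG-1, had 60 to 80 counts in control libraries and 3907 to 5072 in the overexpression libraries, as their labels state. Of the proximal tubule markers, LRP2 had no count in any library, and CUBN and AQP1 lay at 0 to 0.359 CPM (counts scaled to library size). SLC34A1 was at 0.164 to 0.588, SLC5A2 at 0.824 to 2.07, ANPEP at 1.62 to 3.61 and GGT1 at 85.1 to 164 CPM. Apart from GGT1, the markers found for the labelled cell type thus lay at 0 to 3.61 CPM. Of the 7 epithelial markers, the keratins KRT8, KRT18 and KRT19, the adhesion molecule EPCAM and the renal factor PAX8 were present in every library. E-cadherin (CDH1) had at most 9 counts in any library, whereas N-cadherin (CDH2) stood at 195 to 258 CPM. Control replicate 3 stood apart from the other control libraries, with a chi-square per degree of freedom of 42.3 and 42.7 against them where all other pairs within a group gave 6.52 to 8.35. Mitochondrially encoded genes took 4.80 to 5.59% of the counts in control libraries and at most 1.55% in the overexpression libraries.

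SLC7A11 rose 2.44-fold in USAG-1-overexpressing cells (95% interval 2.06 to 2.90). The gene (ENSG00000151012) lies on the minus strand of chromosome 4, from 138164097 to 138242349 in hg38. Control replicates 1 to 3 held 458, 553 and 436 counts of it, and the overexpression replicates 1341, 1176 and 997. On the CPM scale the control libraries stood at 11.0, 11.2 and 10.2 and the overexpression libraries at 29.2, 26.9 and 23.1. The lowest overexpression library was thus above the highest control library, as happened in one direction or the other for 37.6% of all genes tested.

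The mean level rose from 10.8 ± 0.513 to 26.4 ± 3.09 CPM (SD over 3 libraries each). This is 1.29 ± 0.11 on the log2 scale (value ± standard error), with an adjusted p of 0.000436 from the quasi-likelihood test of edgeR, adjusted by the Benjamini-Hochberg method over all genes tested. At an adjusted p under 0.05, 15.9% of all genes tested were called, 8.95% higher and 6.91% lower. Ordered by fold change, SLC7A11 was at position 47 of the 1628 genes called higher. Its spread between control libraries, 4.75% of the mean, was close to the 4.25 to 4.79% that counting alone gives, whereas between overexpression libraries it was 11.7% against 2.73 to 3.17% from counting. The call held in all 14 alternative settings, with log2 fold changes from 1.21 to 1.38 and adjusted p-values up to 0.00631. Nothing in the labels says that the 3 libraries of a group came from separate cultures, so p-values here measure the spread between these libraries, which may be technical. In bulk RNA a change in the cells that express a gene cannot be told apart from a change in its level per cell.

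SLC3A2 did not rise with its partner. The gene (ENSG00000168003) lies on the plus strand of chromosome 11, from 62856004 to 62888880. Its counts were 7077, 8398 and 8767 in the control libraries and 6694, 6780 and 6865 in the overexpression libraries, which is 170, 170 and 206 CPM against 146, 155 and 159 CPM. All 3 overexpression libraries were below all 3 control libraries, where 37.6% of all genes tested did not overlap in one direction or the other. Control replicate 3 was the highest of the 6.

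The mean of SLC3A2 was 182 ± 20.6 CPM in the control and 153 ± 6.84 CPM in the overexpression libraries (SD over 3 libraries each), a ratio of 0.844 (95% interval 0.737 to 0.967). Its log2 fold change of -0.24 (standard error 0.09) missed the threshold (adjusted p = 0.0921, quasi-likelihood test of edgeR). Without control replicate 3 the value was -0.14 and passed it (adjusted p = 0.0497, edgeR), in a fit that called 27.0% of the genes tested. DESeq2's Wald test, which called 20.7% of the genes, also passed it at -0.25 (adjusted p = 0.0444), while the adjusted p was 0.0632 to 0.277 in the other 12 alternatives. Counting error alone was 1.07 to 1.22% in these libraries, so the depth did not limit this comparison. The control libraries had an SD of 11.4% of their mean (n = 3). Without replicate 3 it was 0.278% (n = 2), below the 1.09 to 1.19% that counting alone gives, so it does not measure the spread between controls.

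**Figure D1:**
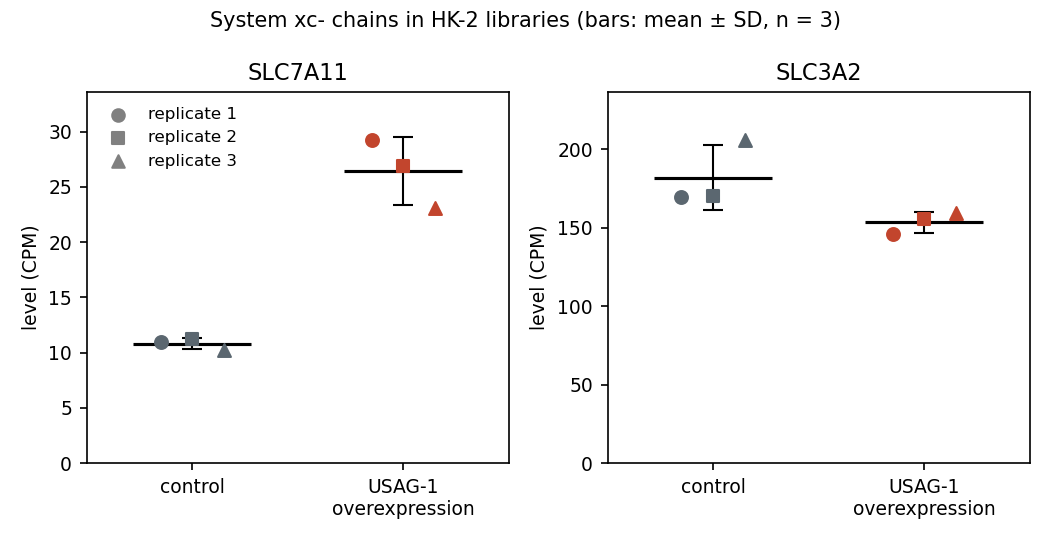
Level of SLC7A11 (left) and SLC3A2 (right) in CPM in each library, with marker shapes for replicates 1 to 3 and bars for the mean ± SD of 3 libraries. SLC7A11 lay at 10.2 to 11.2 CPM in control and 23.1 to 29.2 CPM in overexpression libraries, whereas SLC3A2 lay at 170 to 206 and 146 to 159 CPM, with control replicate 3 highest.

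T and NK cell genes differed strongly between the groups and are given here because SLC3A2, as CD98, is an activation antigen of lymphocytes. Of 22 such markers tested, 19 were called lower and none higher, beside 6.91% lower and 8.95% higher over all genes tested. Some, such as CD3D, CD3G and GZMA, passed the low-count filter only through the control libraries. The number called lower thus depends in part on that filter. None of the markers was at 0 in every library. Their summed level was 304 to 394 CPM in control and 182 to 195 CPM in overexpression libraries. IL32 and IL7R, neither of them called, held most of this, and the other 20 markers summed to 121 to 150 CPM against 15.1 to 20.1 CPM. The sum was highest in control replicate 3, as was SLC3A2. The part of these transcripts in the level of SLC3A2 or SLC7A11 was not tested.

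Because both chains were counted in the same libraries, their ratio does not depend on library size or scaling. For every 100 counts on SLC3A2, the control libraries held 6.47, 6.58 and 4.97 counts on SLC7A11, and the overexpression libraries 20.0, 17.3 and 14.5. These are not corrected for transcript length and do not give the number of molecules of each chain. The log2 ratio was -4.07 ± 0.23 (SD, n = 3) in control and -2.54 ± 0.23 (SD, n = 3) in overexpression libraries, a rise of 1.52 or 2.88-fold. A two-sided exact permutation test gave p = 0.1, the smallest p that 3 libraries against 3 allow. Leaving out any library gave a difference of 1.39 to 1.64.

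The other light chains that pair with SLC3A2 did not move together. SLC7A5 (LAT1), the main importer of large neutral amino acids, fell by 0.45 in log2 units (standard error 0.08 and adjusted p = 0.00941, quasi-likelihood test of edgeR). Its level was 374, 375 and 454 CPM in control and 294, 301 and 282 CPM in overexpression libraries. The groups thus did not overlap, as for 37.6% of all genes tested, and control replicate 3 was again the highest. For every 100 counts on SLC3A2 the control libraries held 221, 220 and 221 of its counts, and the overexpression libraries 202, 194 and 177. SLC7A7 (y+LAT1), which exchanges cationic for neutral amino acids, rose by 0.38 (adjusted p = 0.0443, edgeR), from 11.4 to 13.1 CPM in control to 14.5 to 16.8 CPM in overexpression libraries.

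The related y+LAT2 chain SLC7A6 had a log2 fold change of 0.20 (adjusted p = 0.0879, edgeR) with 127 to 143 CPM in control and 147 to 166 CPM in overexpression libraries. SLC7A8 (LAT2) had 0, 8 and 6 counts in control and 34, 34 and 18 counts in overexpression libraries and did not pass the test (adjusted p = 0.058, edgeR). SLC7A10 (Asc-1) had 7 counts in control replicate 3, none elsewhere, and was not tested. So of 4 light chains tested 1 was called higher and 1 lower, where 8.95% of all genes tested were called higher and 6.91% lower. Their median log2 fold change was 0.29 against -0.02 over all genes tested. SLC7A8 passed the low-count filter only through its overexpression libraries. With at least 10 counts required in every library, 3 light chains were tested, 1 higher and 1 lower, at a median of 0.19. Without control replicate 3 there were 3 higher, SLC7A8 among them, and 1 lower. With DESeq2 or limma-voom there were 2 higher and 1 lower, and without any one other library none higher. Neither call held throughout. SLC7A5 lost significance without USAG-1 overexpression replicate 3 (-0.43, adjusted p = 0.057, edgeR), and SLC7A7 lost it in 7 of 14 alternatives, among them every library left out except control replicate 3, with log2 fold changes of 0.33 to 0.45 over all 14.

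**Figure D2:**
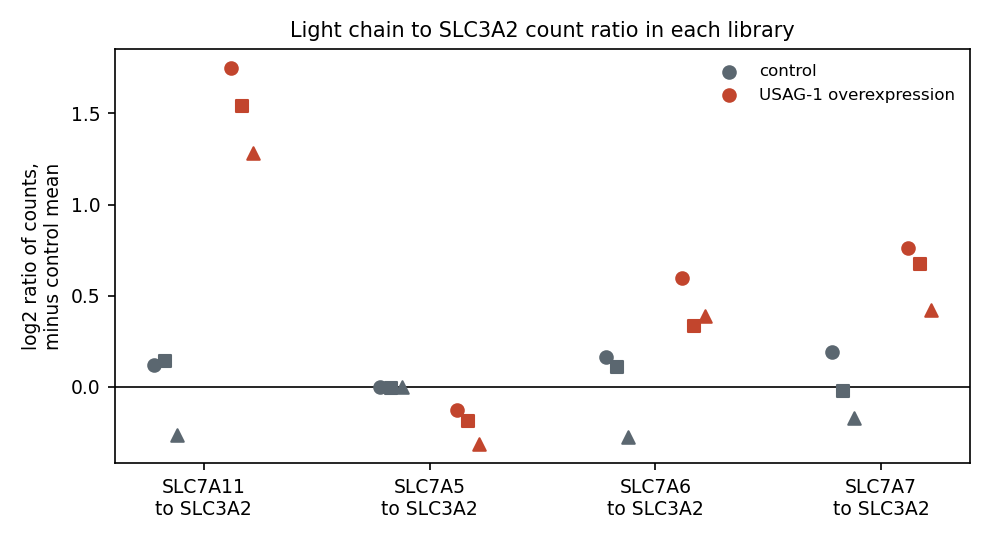
Log2 ratio of the counts of each light chain to those of SLC3A2, minus the mean of the control libraries, for the light chains with counts in every library (shapes mark replicates 1 to 3). The mean ratio differed by 1.52 for SLC7A11, by -0.21 for SLC7A5, by 0.44 for SLC7A6 and by 0.62 for SLC7A7.

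Among other carriers of cystine, cysteine or glutamate, 1 of 6 genes tested was called, a share near the 15.9% called over all genes tested. The median log2 fold change of these 6 was 0.05. Without control replicate 1 the median was -0.01, but 7 genes were then tested, so the medians are not of the same genes. SLC1A4 (ASCT1), a neutral amino acid exchanger, fell by 0.25 in log2 units (adjusted p = 0.0377, quasi-likelihood test of edgeR), from 36.8 to 40.6 CPM in control to 32.3 to 33.0 CPM in overexpression libraries, and lost significance in 7 of 14 alternatives, among them every library left out except control replicate 3. The glutamate and cysteine carrier SLC1A1 (EAAT3) was at 0.633 to 0.927 CPM, and the glutamate carrier SLC1A3 had a log2 fold change of 0.33 (adjusted p = 0.191, edgeR). SLC1A5, the lysosomal cystine exporter CTNS and the lysosomal cysteine importer MFSD12 had log2 fold changes of -0.02, 0.06 and 0.03. The renal cystine exchanger of the brush border, made of SLC3A1 and SLC7A9, was near 0, with at most 23 counts of SLC3A1 and at most 2 of SLC7A9 in any library.

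Of 16 genes tested for cysteine supply and glutathione, which act downstream of cystine import, 5 were called higher and 1 lower, beside 8.95% higher and 6.91% lower over all genes tested. Their median log2 fold change was 0.17 against -0.02 over all genes. Without control replicate 3 there were 6 higher and 1 lower, and without any one overexpression library 2 to 3 higher and none lower. CHAC1, which degrades glutathione, rose by 1.05 (standard error 0.19 and adjusted p = 0.00922, quasi-likelihood test of edgeR), from 2.25 to 2.35 CPM in control to 3.68 to 5.36 CPM in overexpression libraries. GCLC and GCLM, the catalytic and modifier subunits of glutamate-cysteine ligase, rose by 0.45 and 0.35. GSR, which regenerates reduced glutathione, rose by 0.53, and GGT1, which breaks down extracellular glutathione, by 0.55.

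Several further members of this list did not pass the test. CTH and CBS, the enzymes of transsulfuration that make cysteine from methionine, had log2 fold changes of 0.25 (adjusted p = 0.153, edgeR) and -0.16 (adjusted p = 0.347, edgeR). For glutathione synthetase GSS the value was 0.22 (adjusted p = 0.11, edgeR) and for GPX4 -0.21 (adjusted p = 0.289, edgeR). GSR was called in all 14 alternatives. The calls for GCLC (0.44 to 0.45), GCLM (0.33 to 0.39), CHAC1 (0.96) and GGT1 (0.50 to 0.53) were each lost when 1 to 3 of the overexpression libraries were left out in turn. GGT1 has close paralogs, so reads may be shared. It also overlaps ENSG00000286070 over 34177 bases on its own strand, a gene with 10.2% as many counts.

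Of 13 genes known to regulate SLC7A11, 5 were called higher and none lower, beside 8.95% higher and 6.91% lower over all genes tested, with a median log2 fold change of 0.14. Without control replicate 3 there were 7 higher and a median of 0.23, and without any one overexpression library 2 higher. The genes called higher act in opposite directions. ATF4 and NFE2L2 activate SLC7A11, and rose by 0.23 (379 to 418 CPM in control and 451 to 479 CPM in overexpression libraries) and 0.30 (82.5 to 99.0 CPM and 110 to 118 CPM). ATF3 and BACH1 are known as repressors, and rose by 1.01 (standard error 0.12 and adjusted p = 0.00195, quasi-likelihood test of edgeR) and 0.57 (standard error 0.06 and adjusted p = 0.0012, edgeR). ATF3 lay at 8.98 to 11.1 CPM in control and 17.7 to 21.8 CPM in overexpression libraries, and BACH1 at 34.2 to 36.7 and 51.5 to 54.4 CPM. EIF2AK4 (GCN2), the kinase that senses lack of amino acids and raises translation of ATF4, rose by 0.31.

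The other 8 regulators were not called. Among them were, with their log2 fold changes, KEAP1, which marks NRF2 for degradation (0.13), the NRF2 partner MAFG (0.14), the chromatin deubiquitinase BAP1 (0.02), BECN1 (0.06) and the kinase EIF2AK3 (0.04). OTUB1, which stabilizes SLC7A11 protein, had -0.02 and CD44, which aids this, -0.17. The calls for ATF3 and BACH1 held in all 14 alternatives. That of ATF4 (0.20 to 0.28 over the alternatives) was lost in 6 of 14, among them every library left out except control replicate 3, that of NFE2L2 (0.23 to 0.35) in 6 of 14, and that of EIF2AK4 (0.27 to 0.37) without control replicate 2 or any overexpression library. NFE2L2 overlaps HNRNPA3, which has more counts, on the other strand.

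**Figure D3:**
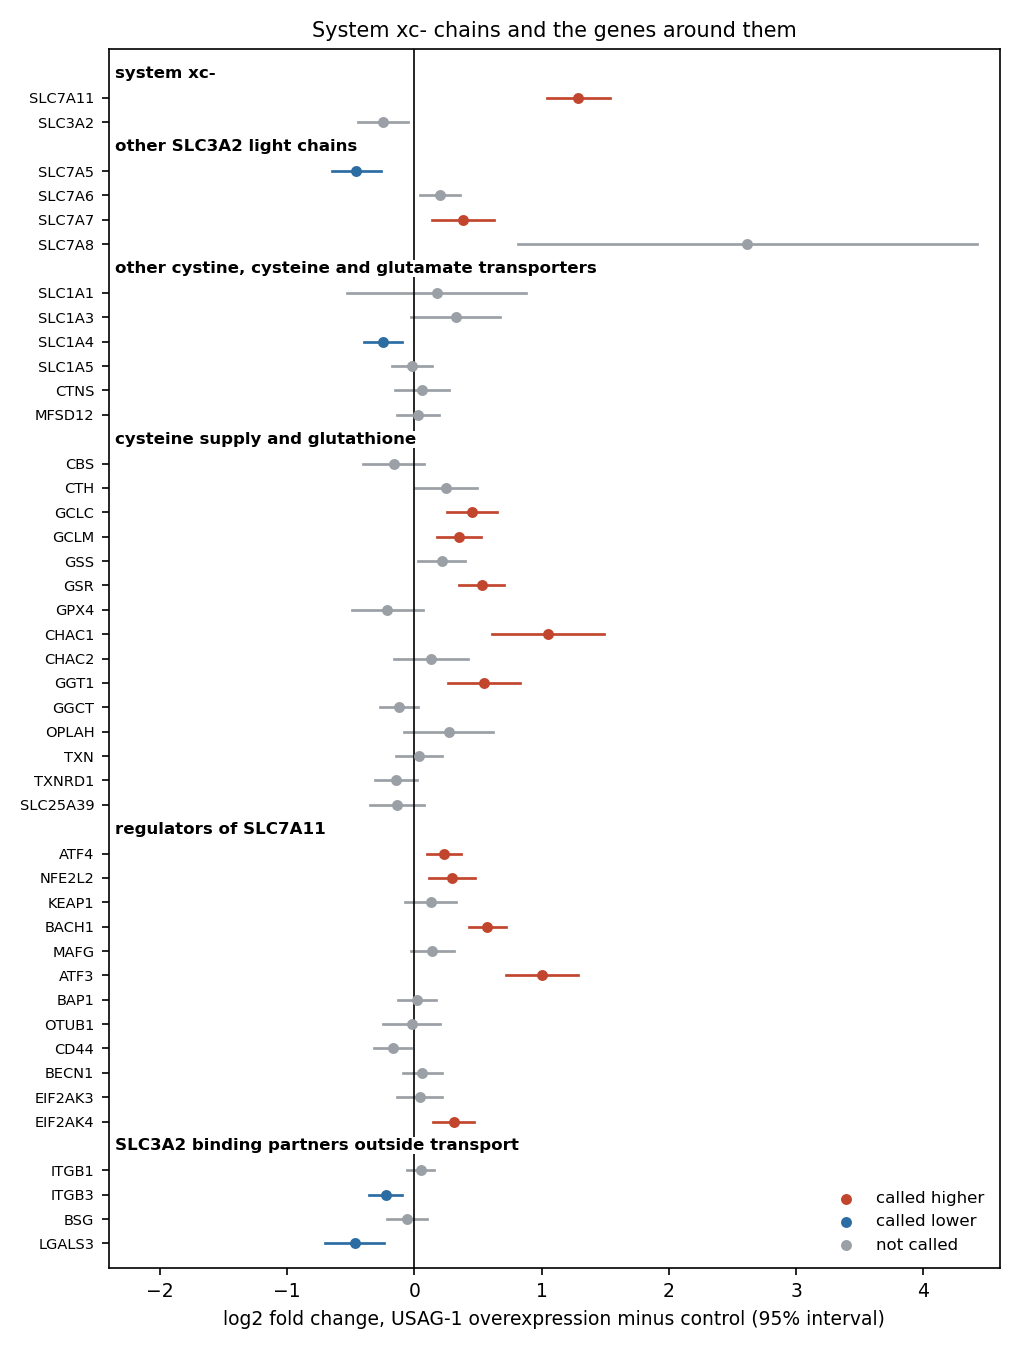
Log2 fold change of USAG-1 overexpression against control with its 95% interval, from edgeR's quasi-likelihood fit, for both chains of system xc- and tested genes of 5 lists, with colour for genes called higher, called lower or not called. SLC7A11 (1.29), ATF3 (1.01) and CHAC1 (1.05) lie far to the right among the genes called higher, and the widest interval belongs to SLC7A8, which has at most 34 counts in any library.

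Other targets of the 2 activators of SLC7A11 were called in both directions. Of 18 NRF2 targets tested, 6 were called higher and 2 lower, beside 8.95% higher and 6.91% lower over all genes tested. The median log2 fold change was 0.16, with 0.10 when control replicate 1 and 0.31 when control replicate 3 was left out. Besides GCLC and GCLM, the genes called higher were OSGIN1 (0.95), haem oxygenase HMOX1 (0.35), malic enzyme ME1 (0.34) and sulfiredoxin SRXN1 (0.27). The exporter ABCC3 fell by 0.83 and UGDH, which makes UDP-glucuronate, by 0.29. NQO1, the textbook target, had a log2 fold change of 0.17 (adjusted p = 0.313, quasi-likelihood test of edgeR) and TXNRD1 one of -0.14 (adjusted p = 0.225, edgeR).

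Of 21 ATF4 targets tested, 6 were called higher and 4 lower, beside the same shares over all genes tested. The median was 0.12, with 0.07 when control replicate 1 and 0.20 when control replicate 3 was left out. The pseudokinase TRIB3 rose by 0.70, DDIT3 (CHOP) by 0.61, the glutamine carrier SLC38A2 by 0.46 and VLDLR by 0.32, beside CHAC1 and ATF3. Asparagine synthetase ASNS fell by 0.44, PHGDH, the first enzyme of serine synthesis, by 0.51 and VEGFA by 0.37, beside SLC7A5. SLC7A11 and SLC7A5, both transporter targets of ATF4 that pair with SLC3A2, were thus called in opposite directions. In both lists the counts rested on the libraries used. Without control replicate 3 there were 10 NRF2 targets higher and 2 lower and 10 ATF4 targets higher and 5 lower, while without any one overexpression library there were 2 to 3 and 3 to 5 higher. OSGIN1, ME1, ABCC3, TRIB3, PHGDH and SLC38A2 were called in all 14 alternatives. VEGFA lost its call in 8 of 14, ASNS, HMOX1 and SRXN1 in 6 each, UGDH and VLDLR in 3 each and DDIT3 in 2, and for VEGFA and ASNS the replicate block was among these. DDIT3 overlaps MARS1, which has more counts, on the other strand. OSGIN1 overlaps MLYCD over 20135 bases on its own strand, and MLYCD has 64.0% as many counts. ASNS overlaps over 20721 bases on its own strand a gene without a symbol, ENSG00000284707, which has 27.0% as many counts.

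SLC3A2 also has partners outside transport. Of 4 such genes tested, none was called higher and 2 were called lower, beside 8.95% higher and 6.91% lower over all genes tested. LGALS3 (galectin-3), which binds sugars on CD98, fell by 0.47, from 154, 155 and 200 CPM in control replicates 1 to 3 to 121 to 124 CPM in overexpression libraries. Integrin ITGB3 fell by 0.23, from 174 to 189 CPM to 152 to 157 CPM. Both calls were lost without any one of the overexpression libraries, at -0.47 to -0.46 for LGALS3. That of ITGB3 was lost in 7 of 14 alternatives, at -0.25 to -0.18 over all 14. It was also lost without control replicate 1 or 2, with the replicate block and without the low-count filter. ITGB1 and BSG (basigin) had log2 fold changes of 0.05 and -0.06.

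Around SLC7A11 the only overlapping gene in the table was SLC7A11-AS1, on the other strand over 14081 bases, which had 4 counts in control replicate 3 and none in the other libraries. The nearest genes with a symbol and a mean of at least 1 CPM were far away, and genes without a symbol were not searched. PABPC4L, 3962307 bases towards lower coordinates, had a log2 fold change of 0.37 (adjusted p = 0.0951, quasi-likelihood test of edgeR). NOCT, 773431 bases towards higher coordinates, rose by 0.56 (adjusted p = 0.0343, edgeR), a call lost in 6 of 14 alternatives, among them every library left out except control replicate 3 (0.45 to 0.76 over the alternatives).

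SLC3A2 overlapped no gene, and SNHG1, a host gene of small nucleolar RNAs on the opposite strand, lay 71 bases before it. The control libraries held 4973, 5899 and 3160 counts of SNHG1, and the overexpression libraries 3378, 2894 and 3270. Control replicate 3, which was highest for SLC3A2, was the lowest control library for SNHG1 and lay within the range of the overexpression libraries. Its log2 fold change was -0.54 (adjusted p = 0.068, quasi-likelihood test of edgeR). On the other side, the nearest gene with a symbol and a mean of at least 1 CPM was LGALS12, 617171 bases away, with 15 to 110 counts.

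To find genes with a like pattern, the 6 log2 CPM values of each gene were taken relative to its own control mean, and the root mean square difference from the member was computed over 11100 genes with a symbol and at least 5 CPM on average. Closest to SLC7A11 were SH2B2 (0.105), FREM2 (0.116), NCOA7 (0.135), ETV1 (0.148) and ZNF114 (0.153). All 5 were called higher, with log2 fold changes of 1.12 to 1.41. For SLC3A2 they were MMS19, DNTTIP1, POP1, EIF4A3 and EBP, with differences of 0.0221 to 0.0274 and log2 fold changes of -0.24 to -0.23, none of them called. In all, 789 of the 11100 genes lay within 0.1 of SLC3A2 and none within 0.1 of SLC7A11, so the 5 genes named for SLC3A2 are not particular to it. The 6 values of a gene come from the same 6 libraries and hold the group difference, so this likeness is a description. Fold changes close to that of the member follow from this choice of genes, so they and the calls are not a separate result.

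**Figure D4:**
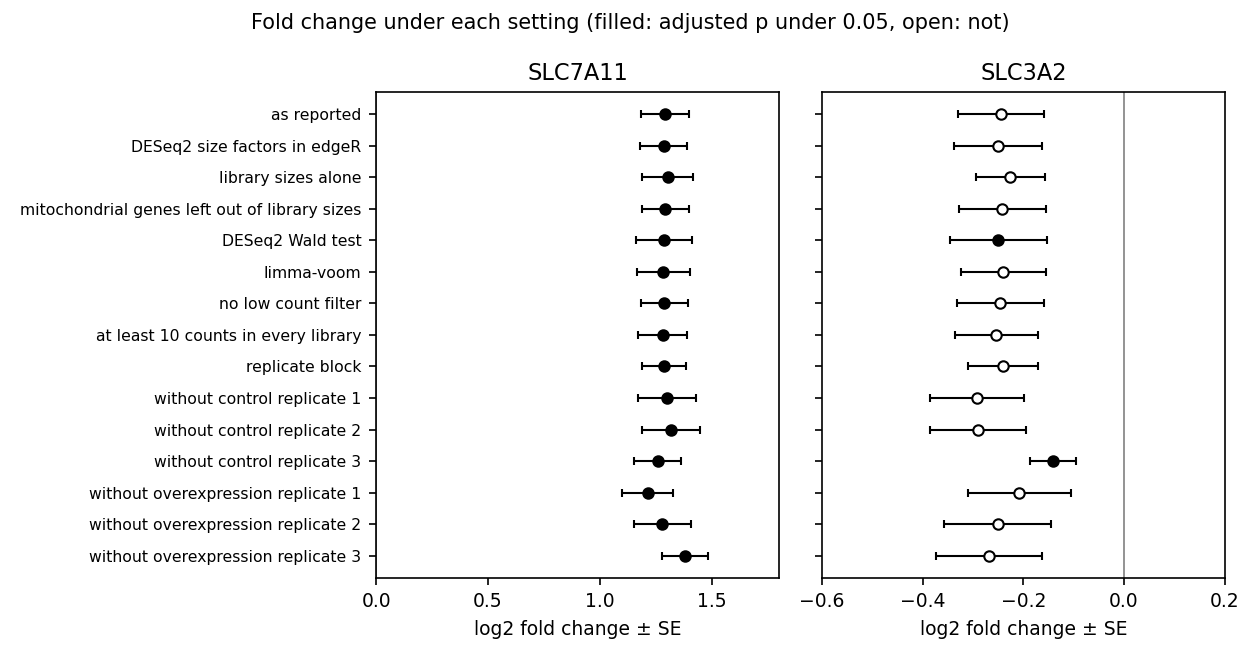
Log2 fold change ± standard error of SLC7A11 (left) and SLC3A2 (right) as reported and under 14 alternatives, with filled points where the adjusted p was under 0.05. SLC7A11 stayed between 1.21 and 1.38 and was called throughout, whereas SLC3A2 lay between -0.29 and -0.14 and was called only with DESeq2's Wald test and without control replicate 3.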

How the data were processed

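The authors deposited 1 table of whole-number counts per gene for the 6 libraries, without normalization, although its name speaks of FPKM. The submitters' processing notes list cutadapt 1.9, FastQC and hg38. The aligner, the counting tool and the use of strand in counting are not given in the sources used here. Genes were filtered with filterByExpr, scaled by TMM and tested with the quasi-likelihood test of edgeR 4.0.16 in R 4.3.3, without a replicate block, at a Benjamini-Hochberg adjusted p under 0.05 over all 18188 genes tested. These genes held 99.9% of the counts. DESeq2 1.42.0, which the methods of the study name, and limma 3.58.1 were alternatives. A count of 3, the upper limit that 0 allows, is 0.0608 to 0.0719 CPM, for counting error only. The standard error was taken as the size of the log2 change over the root of its F statistic, and levels are CPM on the TMM scale. The code was tested on simulated data.

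The members and the gene lists, typed from general knowledge, were chosen with earlier results of these data known. Counts over the lists include 2 genes that are not reported here. Named are the members, SOSTDC1, the other called genes of the lists, light chains and regulators, neighbouring genes and the 5 genes most like each member. Other genes were picked after their values were seen. Of the listed genes, CDO1, SLC7A13 and SLC22A6 were not matched by symbol. The reference supplied was of mouse and was not used.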

Additional observations from a re-analysis of the deposited data

How the results depend on the processing

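The alternatives were other scalings, DESeq2's Wald test, limma-voom, other filters on low counts, a replicate block and each library left out in turn. SLC7A11 kept its call in all 14. SLC3A2 kept its sign in all 14 and was called by the Wald test of DESeq2 (-0.25) and without control replicate 3, with leave-one-out values from -0.29 to -0.14. With 1 library left out the number of genes called ranged from 1137 (without USAG-1 overexpression replicate 2) to 5091 (without control replicate 3), against 2884, and that of called genes in the pathway lists from 10 (without USAG-1 overexpression replicate 3) to 43 (without control replicate 3), against 29. The 29 list genes kept their sign throughout, and 9 of them were called in all 14. These fits leave 2 libraries in 1 group, and the cause of the differences was not tested.

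Replicate numbers are shared by the groups, but same-numbered libraries deviated together by correlations of only -0.0544 to 0.0701, and not every library was most like its own number, so the numbers were not taken as pairs. With the replicate block 2381 genes were called, SLC7A11 had 1.28 and SLC3A2 -0.24, and the exact sign-flip test of the SLC7A11 to SLC3A2 ratio gave p = 0.25, the smallest that 3 differences allow.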
